A study of Homo sapiens with 6 samples.

Results

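The 32 genes described here encode amino acid transporters of the plasma membrane, among 18404 genes with a probeset of their own on the arrays. They were listed by name, from the SLC1, SLC3, SLC6, SLC7, SLC16, SLC36, SLC38 and SLC43 families of solute carriers. All 32 had at least 1 probeset annotated to that gene alone, 33 probesets in total, and SLC1A5, which had 2, was represented by the one with the higher mean over the arrays. RNA was measured on 3 arrays of HEK293 Flp-In cells with constitutive expression of FLAG-HA-tagged TRIM71, and on 3 arrays of the wild-type parental cells, which carry no such transgene. HEK293 cells derive from human embryonic kidney and are an established line. Flp-In cells hold a recombination site for placing a transgene, and TRIM71 is an RNA-binding protein known from stem and progenitor cells. Both lines grew in DMEM with 2 mM glutamine and 10% fetal calf serum, and the medium of the TRIM71 line also had 50 ug/ml hygromycin B for maintenance. The transgene, the drug and any other difference between the lines cannot be told apart, and the labels do not say whether the TRIM71 line is a single clone. Triplicates are stated, but not whether they were separate cultures, so a p-value here reflects the spread of 3 arrays per line, part or all of which may be technical.

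Cells take up most amino acids through carriers with overlapping substrates. Some couple uptake to sodium and concentrate their substrate, and others exchange an amino acid outside for one inside. Members of the SLC7 family that carry large neutral or cationic amino acids often need a heavy chain from the SLC3 family to reach the membrane. Several transporter genes are known targets of ATF4, a transcription factor that is translated when amino acids are short or the endoplasmic reticulum is stressed. Not every listed protein works mainly at the cell surface. SLC38A7 and SLC38A9 are known from the lysosome, and SLC36A1 from both lysosome and cell surface.

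Values are log2 expression as the authors deposited it, and a difference is the TRIM71 line minus the parental line on that scale. A gene was called when its adjusted p, from a limma fit across all 32321 probesets, was under 0.05. TRIM71 itself stood at 10.63, 10.86 and 10.72 on the arrays of its line, against 7.23, 7.54 and 7.44 on the parental arrays (log2 difference 3.33, SE 0.10, adjusted p = 6.8e-05; two-sided exact permutation p = 0.1, the smallest that 3 against 3 allow). The arrays correlated at 0.996 to 0.997 within groups and 0.991 to 0.994 between groups. Of the markers listed for this line, VIM, CDH2, NEFL and INA stood at means of 10.4 to 12.4 in both lines, PAX2 at 7.15 to 7.36, and NEFM below the median of all probesets, 6.94. VIM (0.40) and CDH2 (0.42) rose and the neurofilament-type genes NEFL (-1.45) and INA (-0.62) fell, and their part in the results below was not tested. The leukocyte, endothelial and hepatocyte markers PTPRC, CD14, CD3E, PECAM1, CDH5 and ALB stood below that median too, at means of 3.50 to 5.97, and none of them passed the test. Of the fibroblast markers, COL1A1 was above it and COL1A2 and DCN below it, and none passed. In RNA from a whole culture, less transcript per cell and fewer cells with the transcript cannot be told apart.

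Amino acid transporter genes moved in both directions in the TRIM71 line. Of the 32, 10 fell, 7 rose and 15 did not pass the test. Over all genes 12.2% were called lower and 10.0% higher, against 31.2% and 21.9% of the transporters, and 22.2% of all genes were called in either direction. The 32 were chosen with earlier results of these data known. The shares and counts given here therefore describe this list, and no excess over other genes was tested. Among the 11100 genes at or above the median level, where 27 of the transporters lie, 16.6% were lower and 14.6% higher. Of those 27 transporters, 37.0% were lower and 22.2% higher. The falls were the larger changes. At least 1.5-fold lower were 7 transporters, or 21.9%, where 2.71% of all genes were. At least 2-fold lower were 4, namely SLC6A9, SLC1A4, SLC7A3 and SLC7A5, where 154 of all 18404 genes and 3 of the 344 other SLC genes were. No transporter rose by 1.5-fold, where 1.26% of all genes did. The median difference of the 32 was -0.01, the same as over all genes. The 3 TRIM71 arrays lay wholly below the 3 parental arrays for 12 transporters and wholly above them for 9, where 23.4% and 20.2% of all genes did so (43.6% in either direction). The other 344 genes with an SLC symbol were called lower in 13.4% and higher in 8.43% of cases, and with at least 1.5-fold in 2.62% and 1.16%.

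**Figure D1:**
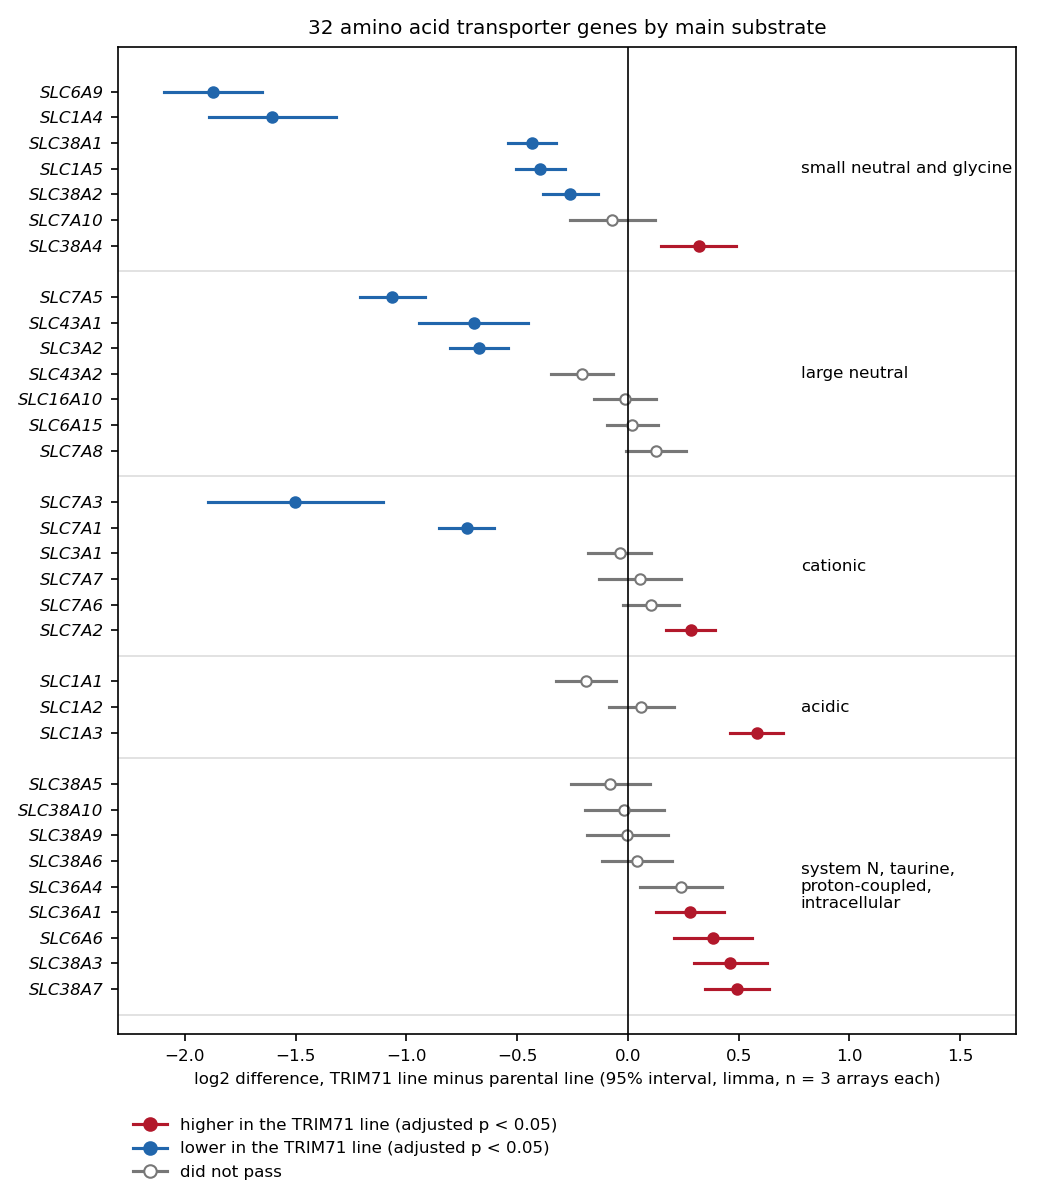
The log2 difference between the TRIM71 and parental lines (x axis) of each of the 32 transporter genes, with its 95% interval from limma (3 arrays per group), grouped by main substrate. The 5 lowest points, SLC6A9, SLC1A4, SLC7A3, SLC7A5 and SLC7A1, lie between -1.87 and -0.73, and the highest, SLC1A3, lies at 0.58.

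Carriers of small neutral amino acids and glycine held the largest share of falls, with 5 of 7 lower, 1 higher and 1 that did not pass. Over all genes 12.2% were lower and 10.0% higher, the shares to set beside this and each later substrate group. SLC6A9, the sodium- and chloride-coupled glycine transporter, had 7.71, 7.93 and 7.83 in the TRIM71 line, against 9.80, 9.75 and 9.53 in the parental line. The gap between the groups was 1.60, against an SD of 0.11 in the TRIM71 line and 0.14 in the parental line. It fell by 1.87 on the log2 scale (SE 0.09, 95% interval -2.09 to -1.65, adjusted p = 0.00021), which is 3.66-fold lower.

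SLC1A4, a sodium-dependent exchanger of alanine, serine and cysteine, had 7.45, 7.81 and 7.84 in the TRIM71 line, against 9.39, 9.35 and 9.17 in the parental line. TRIM71 replicate 1 was the lowest of the 6 arrays, and the groups stayed 1.33 apart at their nearest. It was 3.04-fold lower (log2 difference -1.60, SE 0.12, adjusted p = 0.00074). Its relative SLC1A5, the main sodium-dependent glutamine exchanger of many proliferating cells, had 11.30, 11.32 and 11.30 in the TRIM71 line, against 11.71, 11.74 and 11.66 in the parental line. The arrays of each group were nearly level, so a modest fall of 0.39 on the log2 scale passed (SE 0.05, adjusted p = 0.0032). The other SLC1A5 probeset fell as well, with 6.96, 7.09 and 6.90 in the TRIM71 line, against 7.30, 7.23 and 7.32 in the parental line (log2 difference -0.30, SE 0.07, adjusted p = 0.026).

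The sodium-coupled system A carriers SLC38A1 and SLC38A2 take up glutamine, alanine and other small neutral amino acids. SLC38A1 had 11.79, 11.75 and 11.74 in the TRIM71 line, against 12.22, 12.20 and 12.16 in the parental line. The groups did not overlap, and the fall was 0.43 on the log2 scale (SE 0.04, adjusted p = 0.0021). SLC38A2, whose mRNA is known to rise when amino acids are withdrawn, had 11.762, 11.800 and 11.753 in the TRIM71 line, against 12.104, 11.989 and 11.999 in the parental line. Its groups did not overlap either (log2 difference -0.26, SE 0.05, adjusted p = 0.019), but the call ended without TRIM71 replicate 1 (adjusted p = 0.071), TRIM71 replicate 2 (0.053), TRIM71 replicate 3 (0.060) or parental replicate 2 (0.051). SLC38A4, another system A carrier, was dim, with 5.50, 5.56 and 5.61 in the TRIM71 line, against 5.11, 5.25 and 5.34 in the parental line. It rose by 0.32 (SE 0.07, adjusted p = 0.028), below the median of all probesets, where log2 values understate fold changes. The SLC38A4 call ended without any TRIM71 replicate or without parental replicate 1 or 2 (adjusted p between 0.053 and 0.085). SLC38A1, SLC38A2 and SLC38A4 are neighbours on chromosome 12 in that order among protein-coding genes, and the first 2 fell while SLC38A4 rose. SLC7A10, an exchanger of small neutral amino acids including D-serine, had 7.10, 7.13 and 7.35 in the TRIM71 line, against 7.25, 7.22 and 7.33 in the parental line, and did not pass (-0.07, adjusted p = 0.63).

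**Figure D2:**
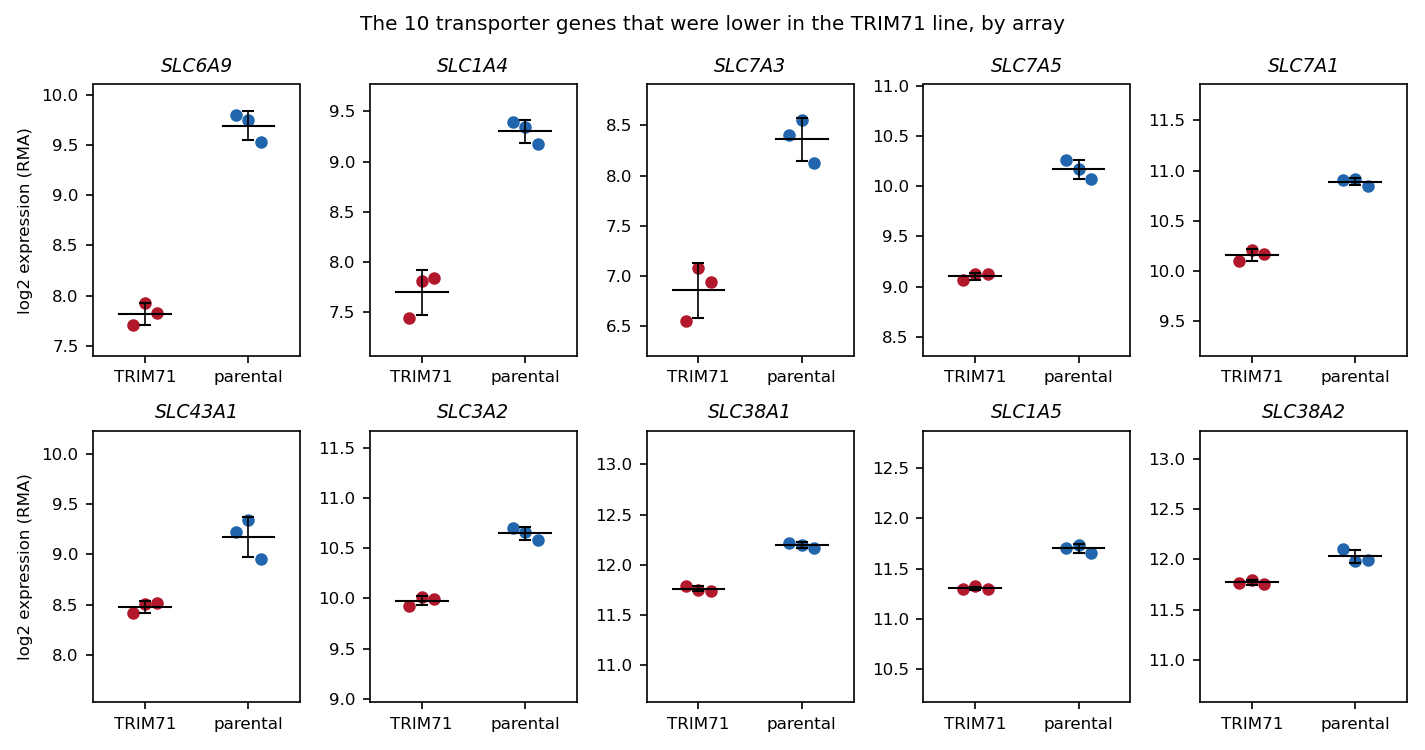
Log2 expression (y axis, with the same span of 2.7 units in every panel) of the 10 lower transporter genes on each array of the TRIM71 line (red) and the parental line (blue); horizontal lines are means and error bars SD (n = 3). In every panel the 3 TRIM71 arrays lie below the 3 parental arrays, with the widest gap for SLC6A9 (1.60) and the narrowest for SLC38A2 (0.19).

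Of 7 carriers of large neutral amino acids, 3 fell, 0 rose and 4 did not pass. SLC7A5, the light chain of the main leucine exchanger of proliferating cells, had 9.06, 9.12 and 9.13 in the TRIM71 line, against 10.26, 10.17 and 10.07 in the parental line. The groups were 0.95 apart at their nearest, and SLC7A5 was 2.09-fold lower (log2 difference -1.06, SE 0.06, adjusted p = 0.00033). SLC3A2, the heavy chain that SLC7A5 needs to reach the membrane and that several other SLC7 members share, had 9.93, 10.01 and 9.99 in the TRIM71 line, against 10.70, 10.66 and 10.58 in the parental line. It was 1.59-fold lower with no overlap (log2 difference -0.67, SE 0.05, adjusted p = 0.00095). SLC43A1, a facilitative carrier of large neutral amino acids that needs no heavy chain, had 8.41, 8.51 and 8.52 in the TRIM71 line, against 9.23, 9.34 and 8.96 in the parental line. Parental replicate 3 was the lowest parental array and still stood 0.44 above every TRIM71 array (log2 difference -0.70, SE 0.10, adjusted p = 0.0067).

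Other carriers of large neutral amino acids stayed on the other side of the threshold. SLC43A2, the paralog of SLC43A1, had 8.28, 8.24 and 8.37 in the TRIM71 line, against 8.44, 8.51 and 8.55 in the parental line. These arrays did not overlap, yet the difference of -0.21 missed the threshold (95% interval -0.34 to -0.07, adjusted p = 0.060). SLC7A8, which like SLC7A5 pairs with SLC3A2, had 9.51, 9.63 and 9.63 in the TRIM71 line, against 9.42, 9.51 and 9.45 in the parental line, and its groups overlapped (0.13, 95% interval -0.01 to 0.26, adjusted p = 0.19). SLC16A10 is a carrier of aromatic amino acids, and SLC6A15 a sodium-coupled carrier of branched-chain amino acids and proline. For each of them, the mean in the TRIM71 line was within 0.02 of its own mean in the parental line. SLC16A10 averaged 10.71 ± 0.08 in the TRIM71 line and 10.72 ± 0.04 in the parental line (SD, n = 3 each; 95% interval of the difference -0.15 to 0.13). SLC6A15 averaged 9.84 ± 0.05 in the TRIM71 line and 9.82 ± 0.02 in the parental line (95% interval of the difference -0.09 to 0.13).

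The cationic amino acid carriers SLC7A1, SLC7A2 and SLC7A3, which bring in arginine and lysine without a heavy chain, did not move together. SLC7A3 had 6.56, 7.09 and 6.94 in the TRIM71 line, against 8.40, 8.56 and 8.13 in the parental line. The spread within each group was the widest of the 32 (SD 0.27 for the TRIM71 line and 0.22 for the parental line), and the groups were still 1.04 apart. SLC7A3 was 2.83-fold lower (log2 difference -1.50, SE 0.16, adjusted p = 0.0025). Its mean in the TRIM71 line, 6.86, was below the median of all probesets, where log2 values understate fold changes. SLC7A1, the carrier of this kind found in most cell types, had 10.10, 10.21 and 10.17 in the TRIM71 line, against 10.91, 10.91 and 10.85 in the parental line. It was 1.66-fold lower, without overlap (log2 difference -0.73, SE 0.05, adjusted p = 0.00062). SLC7A2 went the other way, with 10.42, 10.49 and 10.46 in the TRIM71 line, against 10.16, 10.15 and 10.21 in the parental line. All 3 TRIM71 arrays were above the parental arrays, and the rise was 0.28 (SE 0.05, adjusted p = 0.0098).

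SLC7A6 and SLC7A7 exchange cationic for neutral amino acids as partners of SLC3A2, and neither passed. SLC7A6 had 10.30, 10.34 and 10.22 in the TRIM71 line, against 10.20, 10.14 and 10.20 in the parental line and its groups did not overlap, by 0.02 (difference 0.11, adjusted p = 0.25). SLC7A7 and SLC3A1, the heavy chain of the renal carrier of cystine and dibasic amino acids, were dim in both lines. SLC7A7 averaged 5.21 ± 0.14 in the TRIM71 line and 5.16 ± 0.04 in the parental line (SD, n = 3 each; adjusted p = 0.72). SLC3A1 had 5.02, 4.98 and 5.01 in the TRIM71 line, against 5.05, 5.12 and 4.95 in the parental line (adjusted p = 0.75).

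Among the 3 sodium-coupled carriers of glutamate and aspartate, 1 rose and 0 fell. SLC1A3, known from astrocytes, had 9.78, 9.79 and 9.77 in the TRIM71 line, against 9.14, 9.19 and 9.26 in the parental line. The TRIM71 arrays were within 0.02 of each other, and SLC1A3 had the largest rise of the 32 (0.58, SE 0.05, adjusted p = 0.0012), just under the 1.5-fold counted above. SLC1A1, the carrier of this kind found in neurons, gut and kidney, had 8.17, 8.32 and 8.27 in the TRIM71 line, against 8.49, 8.42 and 8.43 in the parental line. The groups did not overlap, and the difference of -0.19 did not pass (95% interval -0.32 to -0.05, adjusted p = 0.069). SLC1A2, the main glutamate carrier of the adult forebrain, was dim, at 5.11 ± 0.08 in the TRIM71 line and 5.04 ± 0.05 in the parental line (SD, n = 3 each; adjusted p = 0.58).

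The remaining 9 transporters comprise the system N carriers SLC38A3 and SLC38A5, the taurine carrier SLC6A6, the proton-coupled SLC36A1 and SLC36A4, and SLC38A6, SLC38A7, SLC38A9 and SLC38A10. Of these 4 rose and 0 fell. SLC38A7, a lysosomal carrier that exports glutamine, had 7.84, 7.93 and 7.90 in the TRIM71 line, against 7.49, 7.32 and 7.38 in the parental line. Its groups were 0.35 apart (log2 difference 0.49, SE 0.06, adjusted p = 0.0037). SLC38A3, a carrier of glutamine, histidine and asparagine, had 7.82, 8.05 and 7.96 in the TRIM71 line, against 7.49, 7.47 and 7.48 in the parental line. Its parental arrays were level, and all TRIM71 arrays stood at least 0.32 above them (log2 difference 0.46, SE 0.07, adjusted p = 0.0069).

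SLC6A6, which takes up taurine and beta-alanine with sodium and chloride, had 9.47, 9.68 and 9.58 in the TRIM71 line, against 9.10, 9.23 and 9.24 in the parental line. It rose by 0.38 with no overlap (SE 0.07, adjusted p = 0.016), and the call ended without TRIM71 replicate 2 (adjusted p = 0.051) or parental replicate 2 (0.052). SLC36A1, which exports small amino acids from lysosomes and takes them up in the gut, had 8.98, 9.05 and 8.96 in the TRIM71 line, against 8.67, 8.65 and 8.83 in the parental line. The groups were 0.14 apart, and the rise of 0.28 passed with all 6 arrays (SE 0.06, adjusted p = 0.030). Of the 6 arrays, leaving out any but parental replicate 3 ended the SLC36A1 call (adjusted p between 0.061 and 0.10). Its relative SLC36A4 had 9.12, 9.15 and 9.10 in the TRIM71 line, against 9.04, 8.82 and 8.78 in the parental line, and did not pass with all arrays (0.24, adjusted p = 0.086), though it did without parental replicate 1 (0.32, adjusted p = 0.019). SLC38A9, the lysosomal arginine sensor of the mTORC1 pathway, averaged 9.87 ± 0.09 in the TRIM71 line and 9.87 ± 0.11 in the parental line (SD, n = 3 each), with a 95% interval of the difference from -0.18 to 0.18. SLC38A5, SLC38A6 and SLC38A10 overlapped between the lines as well, with differences of -0.08, 0.04 and -0.02 (adjusted p between 0.56 and 0.92).

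**Figure D3:**
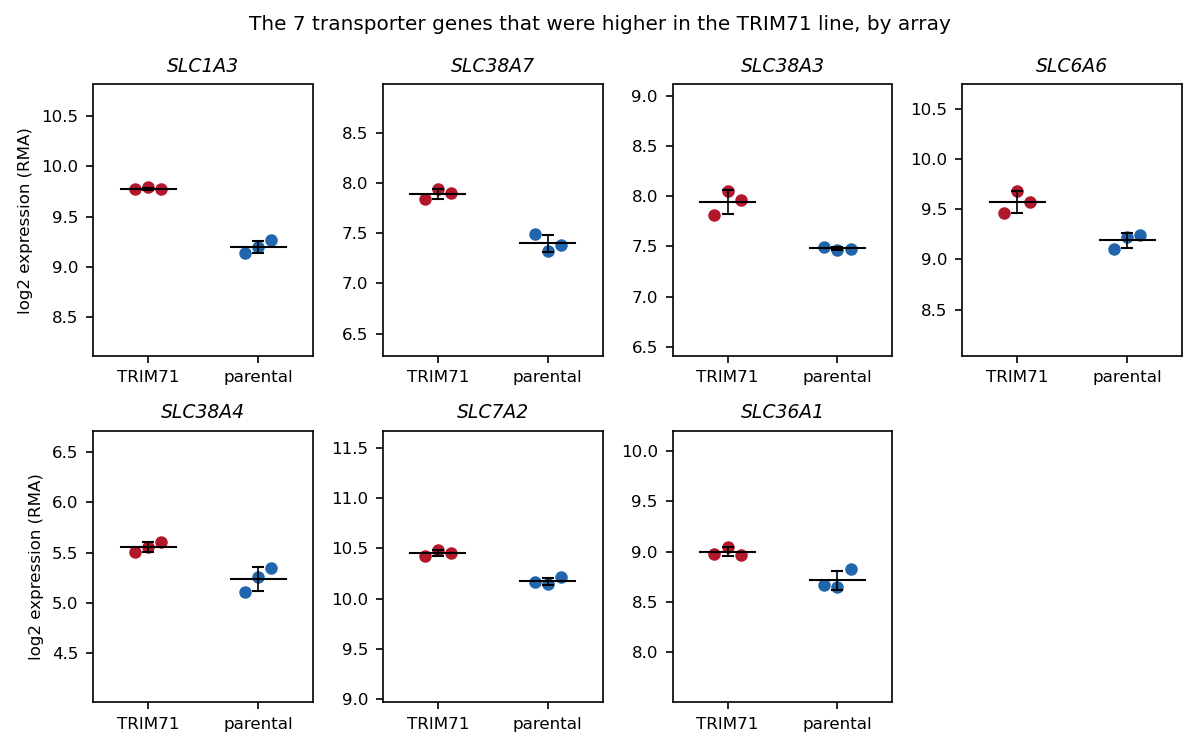
Log2 expression (y axis, with the same span of 2.7 units in every panel) of the 7 higher transporter genes on each array of the TRIM71 line (red) and the parental line (blue); horizontal lines are means and error bars SD (n = 3). The 3 TRIM71 arrays lie above the 3 parental arrays in each panel, by 0.51 at the nearest for SLC1A3 and by 0.14 for SLC36A1.

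Related transporters were then set against each other on the same array, in 11 pairs of paralogs or of heavy and light chains. The log2 difference between 2 probesets has no meaning as a level, because probesets bind unequally, but where both probesets are above the median level, a change of that difference between the lines shows that their log2 values changed unequally. It did not overlap between the lines for 9 of the 11 pairs. All 11 pairs hold at least 1 gene whose own arrays did not overlap, as 43.6% of all genes did not, and no share over other gene pairs was computed, so nothing is read from that count. Each of these 9 had a two-sided exact permutation p of 0.1, the smallest possible, and 0.12 after Benjamini-Hochberg adjustment over the 11 pairs, so none could pass.

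SLC7A5 minus SLC7A8 was -0.44, -0.50 and -0.50 on the TRIM71 arrays, against 0.84, 0.66 and 0.62 on the parental arrays. The change was -1.19, with SLC7A5 lower relative to SLC7A8. SLC7A5 minus its heavy chain SLC3A2 changed by -0.39, with -0.86, -0.89 and -0.87 on the TRIM71 arrays, against -0.44, -0.49 and -0.50 on the parental arrays. SLC1A4 minus SLC1A5 was -3.85, -3.51 and -3.46 on the TRIM71 arrays, against -2.32, -2.39 and -2.48 on the parental arrays, a change of -1.21. Both members of that pair fell, SLC1A4 by more.

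SLC7A1 minus SLC7A2 changed by -1.01, with -0.32, -0.28 and -0.29 on the TRIM71 arrays, against 0.74, 0.76 and 0.63 on the parental arrays. The change was -2.26 for SLC6A9 minus SLC6A6 and -0.77 for SLC1A1 minus SLC1A3. SLC43A1 minus SLC43A2 changed by -0.49 and SLC38A1 minus SLC38A2 by -0.17. Overlap was found for SLC36A1 minus SLC36A4 (0.04, exact permutation p = 0.7) and SLC7A6 minus SLC7A7 (0.05, exact permutation p = 0.6). SLC3A1 and SLC7A7 are dim in both lines, so SLC3A2 minus SLC3A1 (-0.63) is close to the difference of SLC3A2 alone (-0.67), and neither of these pairs shows whether the 2 mRNAs changed unequally.

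**Figure D4:**
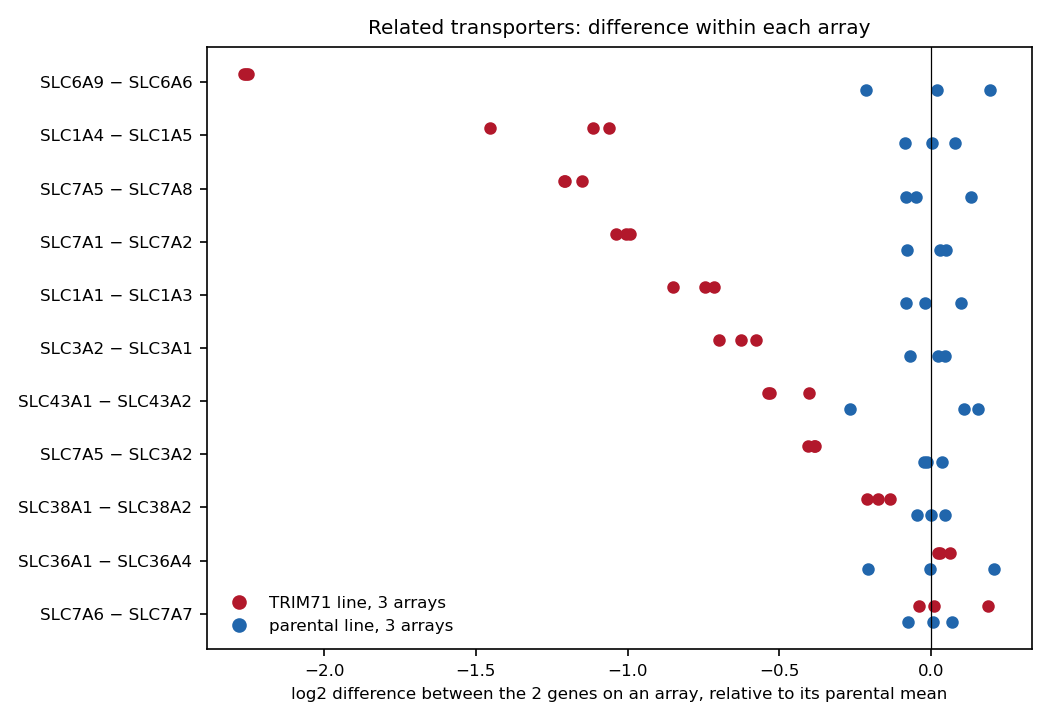
For 11 pairs of related transporters, the log2 value of the first gene minus that of the second on each array, shifted so that each pair's parental mean is 0 (x axis); red points are the 3 TRIM71 arrays and blue points the 3 parental arrays. The points of the lines do not overlap for 9 pairs, from SLC6A9 and SLC6A6 (-2.26) to SLC38A1 and SLC38A2 (-0.17).

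Promoter sequences were examined because ATF4 is known to bind a composite element with C/EBP proteins at several amino acid genes. Motif counts are given as description and were not tested. RefSeq promoters (GRCh38.p14, 250 bases before to 50 after each start site) were matched for 25 of the 32 genes, with 46 start sites. The core of that element, TGATGNAA on either strand, was in 5 of the 9 lower transporters with a promoter, in 1 of 4 higher ones and in 0 of 12 that did not pass. It was in 3.62% of all 35116 promoters, and 3.59% of 14228 genes on the array had it at any of their start sites. The 5 lower genes were SLC1A4, SLC1A5, SLC3A2, SLC7A1 and SLC38A1, and the higher gene was SLC1A3. A match says only that these letters occur in the window. The matches are shown in capitals below, 5′ to 3′ on the strand of the gene, so that those in SLC1A4 and SLC3A2, which lie on the opposite strand, read as the reverse complement.
SLC1A4, chr2:64989381-64989410, + strand: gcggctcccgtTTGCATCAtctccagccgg
SLC1A5, chr19:46784893-46784922, - strand: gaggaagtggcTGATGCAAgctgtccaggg
SLC3A2, chr11:62881725-62881748, + strand: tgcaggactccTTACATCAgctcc
SLC7A1, chr13:29595663-29595692, - strand: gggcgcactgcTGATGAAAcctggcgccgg
SLC38A1, chr12:46266502-46266531, - strand: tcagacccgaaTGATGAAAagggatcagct
SLC1A3, chr5:36596357-36596386, + strand: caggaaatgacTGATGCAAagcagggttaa

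The match began 7 bases before the start site in SLC1A4, 97 before it in SLC1A5, 4 before it in SLC38A1 and 220 before it in SLC1A3. It began at base 38 after the start in SLC3A2 and at base 8 in SLC7A1. Of these genes SLC7A1 has 1 start site in the table, SLC1A4 and SLC38A1 have 2, and SLC1A5, SLC3A2 and SLC1A3 have 3, and each had the match at 1 of them. In SLC1A5 it is the start site furthest downstream, and which start sites these cells use was not measured. SLC6A9, with the largest fall, SLC7A5, SLC38A2 and SLC43A1 held no match in these windows, and SLC7A3 has no promoter in the table.

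A link between the E-box CACGTG and the direction of change was not tested. This palindrome, bound by MYC and related factors, occurred in transporters that fell, that rose and that did not pass. It was in 3 of 9 lower transporters (SLC1A5, SLC7A5 and SLC43A1), in 2 of 4 higher ones (SLC36A1, which has 2 matches, and SLC38A7) and in 3 of 12 that did not pass (SLC7A7, SLC7A8 and SLC38A5), where 10.9% of genes on the array and 7.26% of all promoters had it. The 250 bases before the only listed start site of SLC7A5 are shown because that gene carries the E-box, in capitals, 130 bases before its start and no composite element.
SLC7A5, chr16:87869508-87869757, - strand: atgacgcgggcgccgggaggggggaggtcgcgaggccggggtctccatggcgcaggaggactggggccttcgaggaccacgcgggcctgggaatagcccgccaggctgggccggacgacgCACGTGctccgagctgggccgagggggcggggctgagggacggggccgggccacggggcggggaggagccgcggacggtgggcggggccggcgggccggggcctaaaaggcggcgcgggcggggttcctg

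Genes next to the called transporters on their chromosomes were called at shares near those of all genes (12.2% lower and 10.0% higher). Neighbours that are themselves among the 32 were left out, and neighbours of transporters that did not pass are not in these counts. Of the latter, more fell than rose, with GLIS3 and SPATA6L beside SLC1A1 among the falls and PAMR1 beside SLC1A2 among the rises. Of 15 measured protein-coding neighbours of the lower transporters, 2 fell and 2 rose, and of 13 neighbours of the higher ones, 2 fell and 2 rose. Both falls beside lower transporters flank SLC43A1, namely RTN4RL2 (-0.32, adjusted p = 0.043) and TIMM10 (-0.27, adjusted p = 0.012).

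Of 15 regulators of the amino acid response, 8 fell, 3 rose and 4 did not pass (median -0.18), where 12.2% of all genes fell and 10.0% rose. TRIB3, a pseudokinase induced by ATF4, had 7.58, 7.70 and 7.62 in the TRIM71 line, against 8.67, 8.77 and 8.59 in the parental line (log2 difference -1.04, adjusted p = 0.00048). MYC, which is known to raise SLC7A5 and SLC1A5 in proliferating cells, had 10.02, 10.08 and 9.98 in the TRIM71 line, against 10.62, 10.63 and 10.58 in the parental line (-0.58, adjusted p = 0.0011). The transcription factor ATF2 rose by 0.60 (adjusted p = 0.00058). With 1 array left out, 6 to 7 regulators fell and 1 to 2 rose, and 1 rose without any TRIM71 replicate or without parental replicate 2 or 3.

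Of 25 measured genes of mTORC1 amino acid sensing, 6 fell and 6 rose (median 0.04). These are 24.0% each, where 12.2% of all genes fell and 10.0% rose. The leucine sensor SESN2, also a known target of ATF4, had 8.17, 8.35 and 8.27 in the TRIM71 line, against 9.51, 9.29 and 9.39 in the parental line (-1.13, adjusted p = 0.00057). NPRL3 and DEPDC5, subunits of the GATOR complex that restrains mTORC1, moved in opposite directions (-0.35, adjusted p = 0.0045, and 0.31, adjusted p = 0.0060). Without parental replicate 2 or 3, 3 genes of this list rose.

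Related carriers outside the 32 were described by the same counts, where 12.2% of all genes fell and 10.0% rose. Of 18 measured members of the same families, 2 fell and 1 rose (median -0.02). These were SLC7A11, the light chain of the cystine exchanger (-1.89, adjusted p = 9.5e-05), the dim SLC38A11 (-0.40, adjusted p = 0.028) and the dim SLC7A9, the partner of SLC3A1 in the kidney (0.23, adjusted p = 0.016). No gene of the list rose when any array but parental replicate 1 was left out, and 1 gene of the list fell without TRIM71 replicate 1 or 2 or parental replicate 2. Of 9 mitochondrial amino acid carriers, 2 fell and 2 rose (median -0.03), with the aspartate-glutamate carrier SLC25A13 higher, at 11.32, 11.38 and 11.34 in the TRIM71 line, against 10.82, 10.75 and 10.78 in the parental line (0.56, adjusted p = 0.00095). SLC25A2 fell by 0.44 (adjusted p = 0.0095) and SLC25A18 rose by 0.26 (adjusted p = 0.017), both below the median of all probesets; without TRIM71 replicate 1 or 2 or parental replicate 2 or 3, 1 carrier fell and 1 rose, and without parental replicate 1, 1 fell. Of 5 genes of lysosomal amino acid transport, 1 rose, MFSD12 (0.17, adjusted p = 0.043), and 0 fell; leaving out any 1 array ended that call.

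Carriers of other nutrients gave 1 rise and 0 falls among 9 glucose transporters, SLC2A3 (1.10, adjusted p = 0.0020), and 2 rises and 2 falls among 21 measured carriers of monocarboxylates, nucleosides and zinc. The 21 include the monocarboxylate carrier SLC16A7 (-1.36, adjusted p = 0.0011) and the zinc carriers SLC39A13 (-0.44, adjusted p = 0.0068) and SLC39A14 (0.38, adjusted p = 0.0080), and 1 of the 21 rose when any array but parental replicate 1 was left out. Over all genes 12.2% fell and 10.0% rose. These lists are described by their counts, and no difference between them and the 32 transporters was tested.

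**Figure D5:**
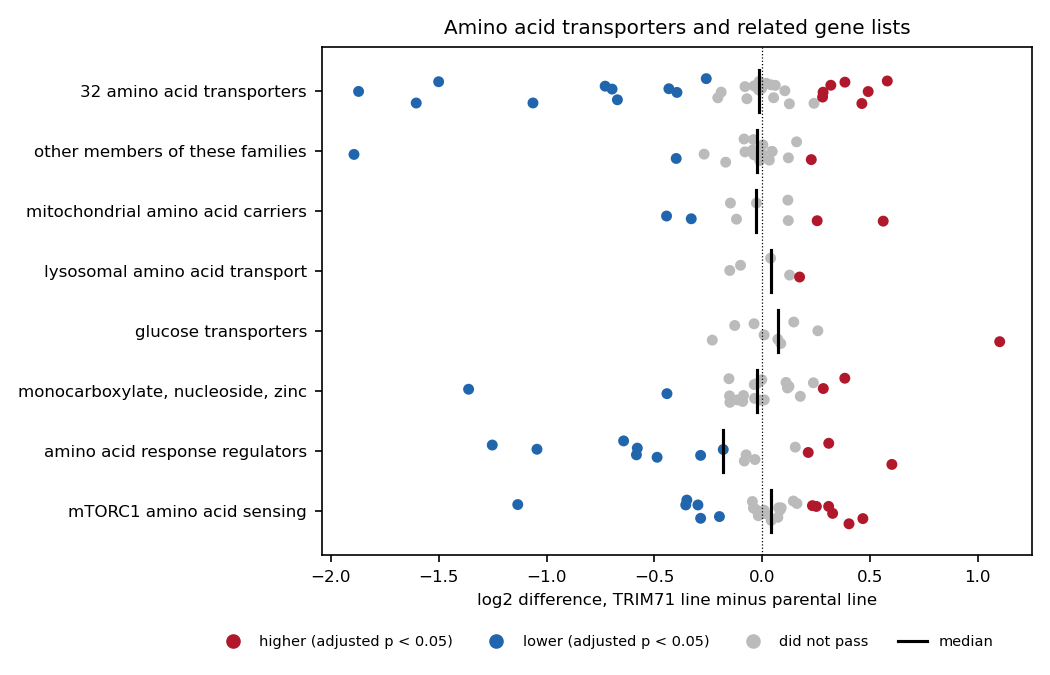
The log2 difference between the TRIM71 and parental lines (x axis) of each gene in the 32 transporters and 7 related lists; blue and red points passed at an adjusted p under 0.05, grey points did not, and black bars are medians. The medians lie between -0.18 (amino acid response regulators) and 0.07 (glucose transporters), and the transporters have both a lower and a higher arm around -0.01.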

How the data were processed

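Total RNA of 6 samples was amplified and hybridised to Affymetrix gene arrays, per the labels' protocols. The deposited values are log2 expression, made by the authors; RMA and affy are the tools listed per the submitters' processing notes, and versions and build are not given in the sources used here. RMA equalises the arrays' distributions, so a change in total mRNA per cell cannot be seen. Of 32321 probesets, the annotation gave 19158 a single symbol, 1388 several and 11775 none; 19128 of the first kind matched RefSeq by gene ID. A gene was represented by its probeset of highest mean. Array medians were 6.90 to 6.97, and 3 arrays per group limit the precision.

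The group effect was fitted across every probeset (limma 3.58.1, R 4.3.3), with no trend, filter or block, and Benjamini-Hochberg adjustment over all of them; the step was tested on simulated data. Members and lists were chosen with earlier results of these data known. All members are named, and of each list up to 3 genes of smallest adjusted p among those that passed; neighbours were named after their values were seen. Replicate numbers are shared between groups. Deviations of same-numbered arrays correlated at 0.07, -0.19 and 0.11, and those of differently numbered arrays at -0.28 to 0.24. So few values, centred within groups of 3, cannot show whether arrays were paired. The alternatives tried were a trend on intensity, the same trend with robust estimation, 2 normalizations, a filter on dim probesets, 1 probeset per gene, the mean of probesets, a replicate block and each array left out. The planned comparison of protein sequences was not run because no protein sequences were used here.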

Additional observations from a re-analysis of the deposited data

How the results depend on the processing

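Over 14 alternative settings, 9 of the 10 lower calls (all but SLC38A2) and 4 of the 7 higher calls (SLC1A3, SLC7A2, SLC38A3 and SLC38A7) were kept in every one. The number of lower transporters was 9 to 10 when 1 array was left out and 9 to 12 otherwise, and 7 with a fold of at least 1.5 required. The number of higher transporters was 4 to 7 when 1 array was left out (4 without TRIM71 replicate 2 or parental replicate 2), 4 at an adjusted p under 0.01 and 0 with a fold of at least 1.5 required. With the replicate block, 9 fell and 6 rose, because SLC38A2 (adjusted p = 0.067) and SLC36A1 (0.087) missed the threshold, and no other call changed. SLC43A2, SLC1A1 and SLC36A4 passed with the filter on dim probesets (adjusted p = 0.021, 0.024 and 0.036), with 1 probeset per gene, with the mean of probesets and with an intensity trend, and SLC43A2 and SLC36A4 also with robust estimation. The filter and 1 probeset per gene adjust over fewer tests. TRIM71 passed under every setting.

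Signs changed only among transporters that did not pass, when 1 array was left out. SLC3A1 ranged between -0.084 (without parental replicate 3) and 0.0048 (without parental replicate 2). SLC6A15 ranged between -0.0065 (without TRIM71 replicate 2) and 0.036 (without TRIM71 replicate 1). SLC7A7 ranged between -0.019 (without TRIM71 replicate 2) and 0.115 (without TRIM71 replicate 1). SLC16A10 ranged between -0.060 (without TRIM71 replicate 3) and 0.013 (without TRIM71 replicate 1). SLC38A6 ranged between -0.013 (without parental replicate 3) and 0.088 (without parental replicate 1). SLC38A9 ranged between -0.044 (without parental replicate 3) and 0.059 (without parental replicate 1). SLC38A10 ranged between -0.063 (without parental replicate 1) and 0.046 (without TRIM71 replicate 1). The cause was not tested.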

Other observations

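Among the 344 other genes with an SLC symbol, 46 fell (13.4%) and 29 rose (8.43%), where 12.2% and 10.0% of all genes did. After SLC7A11, the largest falls were of SLC15A1 and SLC16A7, which were picked after their values were seen. SLC15A1, the proton-coupled carrier of di- and tripeptides known from the gut and kidney, had 5.68, 5.44 and 5.59 in the TRIM71 line, against 6.97, 7.07 and 6.85 in the parental line (log2 difference -1.40, SE 0.09, adjusted p = 0.00041 from limma). The parental arrays were near the median of all probesets, and the TRIM71 arrays were more than 1 log2 unit below it.

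The GABA carrier SLC6A11, a relative of SLC6A9 and SLC6A6 also picked after its values were seen, had 7.21, 7.39 and 7.37 in the TRIM71 line, against 8.17, 8.26 and 8.16 in the parental line (-0.87, SE 0.06, adjusted p = 0.00072). Among the rises, and chosen likewise, SLC5A6, a sodium-coupled carrier of biotin and pantothenate, had 9.82, 9.93 and 9.87 in the TRIM71 line, against 9.38, 9.18 and 9.38 in the parental line (0.56, SE 0.07, adjusted p = 0.0042). The groups did not overlap for any of these 3 genes.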
